A study of Mus musculus with 15 samples.

Results

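The activation of mouse spleen B cells by lipopolysaccharide (LPS) was compared, gene by gene, with the activation of spleen T cells by concanavalin A (ConA). For each gene the change of T cells over 4 h was subtracted from the change of B cells over 4 h, both on the log2 scale, and this difference of 2 differences is called the interaction. A positive interaction means that the B cell response lay above the T cell response, and a negative one that it lay below. The 9045 genes tested were those, of 18194 with a probe set of their own on the arrays, whose highest group mean reached 5 on the log2 signal scale, whose lowest value is 2.24. Each gene was represented by its brightest probe set. Values after ± are standard errors of the fit for interactions and SD over 3 arrays for levels.

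The contrast uses 12 of the 15 arrays of the series, 3 in each of 4 groups, all from spleens of mice of the strain label B6x129. The groups are B cells at 0 h, labelled quiescent; B cells after 4 h with LPS at 25 ug/ml; T cells at 0 h, labelled resting; and T cells after 4 h with ConA at 7.5 ug/ml. No group was cultured without a stimulus, and B cells received only LPS and T cells only ConA, so that the cell type and the stimulus cannot be told apart. The labels give no genotype beyond the strain and no age, and do not say how the cells were purified, whether replicates came from separate animals, or whether animals were pooled. P-values then measure the spread between these arrays, which may be technical. In bulk RNA, fewer cells of a type and less RNA per cell cannot be told apart.

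LPS is a bacterial glycolipid that B cells sense through the Toll-like receptor Tlr4 with its partner Ly96, whose adaptors lead to NF-kappaB and, through a separate branch, to type I interferon genes. ConA is a plant lectin that cross-links glycoproteins, the T cell receptor complex among them, and activates T cells through calcium, NFAT and the Ras-ERK pathway. Both stimuli drive resting lymphocytes out of quiescence into growth, with the transcription factor Myc, the subject of the series' title, among the induced genes.

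The 250 bases upstream of the start site are shown for 6 genes described below, because they share an interferon response motif while their responses differ. Ifit1, Ifit3, Ifih1 and Gbp2 are on the type I interferon list, and Ifit1bl1 and Slfn8 are not. The motif searched was GAAANNGAA on both strands, with no other motif allowed for, and the capitals mark each match, written in either orientation. Of the 6 genes, the first 5 rose in B cells and fell in T cells, whereas Gbp2 rose far more in T cells. The motif was also found upstream of genes described below with other responses, whose windows are not shown. These were Zc3h12d (-3.35 in B cells, 2.61 in T cells), Il4 (0.17 and 4.65) and Trim7 (-8.015 and -0.01). Rnf213 (2.19 and -1.31) moved as the first 5 did, but its window held no match. Nor did the window of Oasl1 (7.33 and -0.10), which is on the interferon list. The windows are from RefSeq on GRCm38.p6 and are written in the direction of the gene. They lie at chr19:34640639-34640888 on the plus strand for Ifit1, chr19:34583279-34583528 on the plus strand for Ifit3 and chr19:34601969-34602218 on the minus strand for Ifit1bl1. Those of the others are chr2:62646256-62646505 on the minus strand for Ifih1, chr11:83020811-83021060 on the minus strand for Slfn8 and chr3:142620413-142620662 on the plus strand for Gbp2.
Ifit1: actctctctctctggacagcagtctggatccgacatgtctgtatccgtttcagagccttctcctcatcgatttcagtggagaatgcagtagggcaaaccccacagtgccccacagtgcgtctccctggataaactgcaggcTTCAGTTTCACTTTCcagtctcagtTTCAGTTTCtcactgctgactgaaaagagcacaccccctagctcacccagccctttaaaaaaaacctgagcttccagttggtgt
Ifit3: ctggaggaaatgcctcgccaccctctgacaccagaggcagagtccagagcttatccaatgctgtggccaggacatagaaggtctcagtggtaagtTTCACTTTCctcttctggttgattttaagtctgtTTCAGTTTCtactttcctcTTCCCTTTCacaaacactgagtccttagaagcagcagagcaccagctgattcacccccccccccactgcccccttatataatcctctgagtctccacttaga
Ifit1bl1: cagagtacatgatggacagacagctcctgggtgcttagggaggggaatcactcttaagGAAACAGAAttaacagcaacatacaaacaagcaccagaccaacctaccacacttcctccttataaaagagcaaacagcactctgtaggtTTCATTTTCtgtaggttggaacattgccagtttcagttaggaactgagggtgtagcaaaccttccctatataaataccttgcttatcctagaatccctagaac
Ifih1: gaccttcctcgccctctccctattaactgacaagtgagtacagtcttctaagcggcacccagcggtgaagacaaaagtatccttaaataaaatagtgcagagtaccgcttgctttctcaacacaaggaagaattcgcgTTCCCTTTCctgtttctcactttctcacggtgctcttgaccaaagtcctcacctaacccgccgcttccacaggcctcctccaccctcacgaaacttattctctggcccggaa
Slfn8: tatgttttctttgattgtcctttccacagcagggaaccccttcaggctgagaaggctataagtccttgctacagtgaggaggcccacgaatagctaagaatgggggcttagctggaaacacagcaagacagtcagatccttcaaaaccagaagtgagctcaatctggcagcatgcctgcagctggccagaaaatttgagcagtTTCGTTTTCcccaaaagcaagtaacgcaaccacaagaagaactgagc
Gbp2: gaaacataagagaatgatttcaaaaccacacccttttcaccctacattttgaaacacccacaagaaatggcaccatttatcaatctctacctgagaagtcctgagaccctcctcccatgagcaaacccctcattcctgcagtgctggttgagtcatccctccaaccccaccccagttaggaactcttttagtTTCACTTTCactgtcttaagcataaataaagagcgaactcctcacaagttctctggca

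The windows of Ifit1 and Ifit3 hold 3 matches each, that of Ifit1bl1 holds 2, and those of Ifih1, Slfn8 and Gbp2 hold 1. The motif was found in 7.16% of the 27025 first windows of all genes in the table and in 6.39% of the 7431 tested genes with a window. It was found in 11 of the 19 tested interferon genes with a window, or 57.9%. Among genes measured in all 4 groups that rose in B cells and fell in T cells, 21 of 207 windows held it, or 10.1%, against 6.36% of those that fell in B cells and rose in T cells. Over all called interactions the share was 6.29% where the B response was above the T response and 6.58% where it was below. Matches to the kappaB consensus, searched by the same script, were in 4.65% and 4.06% of these 2 sets, and the E-box CACGTG, a sequence bound by Myc, was in 9.86% and 8.94%. The AP-1 motif TGANTCA was in 3.88% and 4.29%. A match describes the letters only.

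Across the 9045 genes the interaction passed an adjusted p of 0.05 for 5982, or 66.1%. The B response was above the T response for 2830 genes (31.3%) and below it for 3152 (34.8%). The interaction reached 2-fold for 2931 of the 5982, 1258 above and 1673 below. Responses of the single lineages were as widespread: 37.6% of genes rose and 42.3% fell in B cells, and 33.4% rose and 32.5% fell in T cells. These shares are the background for each count below, in which an interaction above or below 0 is one that was called.

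Genes were divided by where they were expressed. A gene measured in all 4 groups had a mean of at least 5 in each, which held for 7105 genes. The 316 genes at the floor in B cells had both B means under 4 and a T mean of at least 5, and the 296 genes at the floor in T cells were defined the same way. Of the rest, 861 reached 5 in both lineages but fell short of it in at least 1 group, 421 had a weaker lineage whose brighter mean was between 4 and 5, and 46 were below 5 in all 4 groups. The interaction was called for 64.1% of the genes measured in all 4 groups, 75.3% of those dim in a group, 79.1% of those at the floor in B cells and 89.9% of those at the floor in T cells. The 7105 measured genes thus held 4553 of the 5982 calls, 2271 above and 2282 below.

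**Figure D1:**
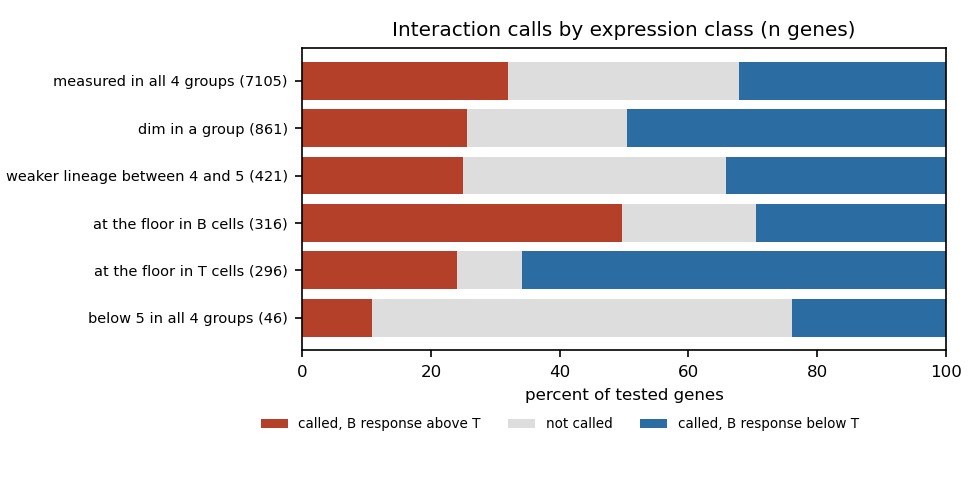
Share of tested genes, in percent, with a called interaction in each expression class; the number of genes is in brackets, red is a B response above the T response, blue below, grey not called. Calls were split nearly evenly in the class measured in all 4 groups, while blue made up most calls of genes at the floor in T cells and red most of those at the floor in B cells.

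Among the genes measured in all 4 groups, B cells changed more. The median absolute response was 0.726 in B cells and 0.393 in T cells, a ratio of 1.848, and 73.2% of genes had the larger absolute response in B cells. A 2-fold change was reached by 2689 genes in B cells and 1073 in T cells. The median distance between the lineages was 0.517 at 0 h and 0.590 at 4 h. The responses of the lineages correlated at r = 0.617 across these genes, which share arrays and are not independent replicates. Where a second probe set of a called gene was also measured in all 4 groups, its interaction had the same sign for 1724 of 1892 genes, and for 615 of 633 with an interaction of at least 2-fold.

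Of the 4553 called interactions of measured genes, 2340 were differences of size: both lineages changed in the same direction, and the B response was the larger in 2074 of these, or 88.6%. B cells rose more than T cells for 1159 genes, and T cells rose more for 125. B cells fell further for 915 genes, and T cells fell further for 141. In 1267 genes only the B response was called, with 552 rises and 715 falls, and in 391 only the T response, with 224 rises and 167 falls. A call in one lineage and not the other is shown to differ here because the interaction itself was called. The remaining groups were 534 genes with opposite responses and 21 with neither response called.

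**Figure D2:**
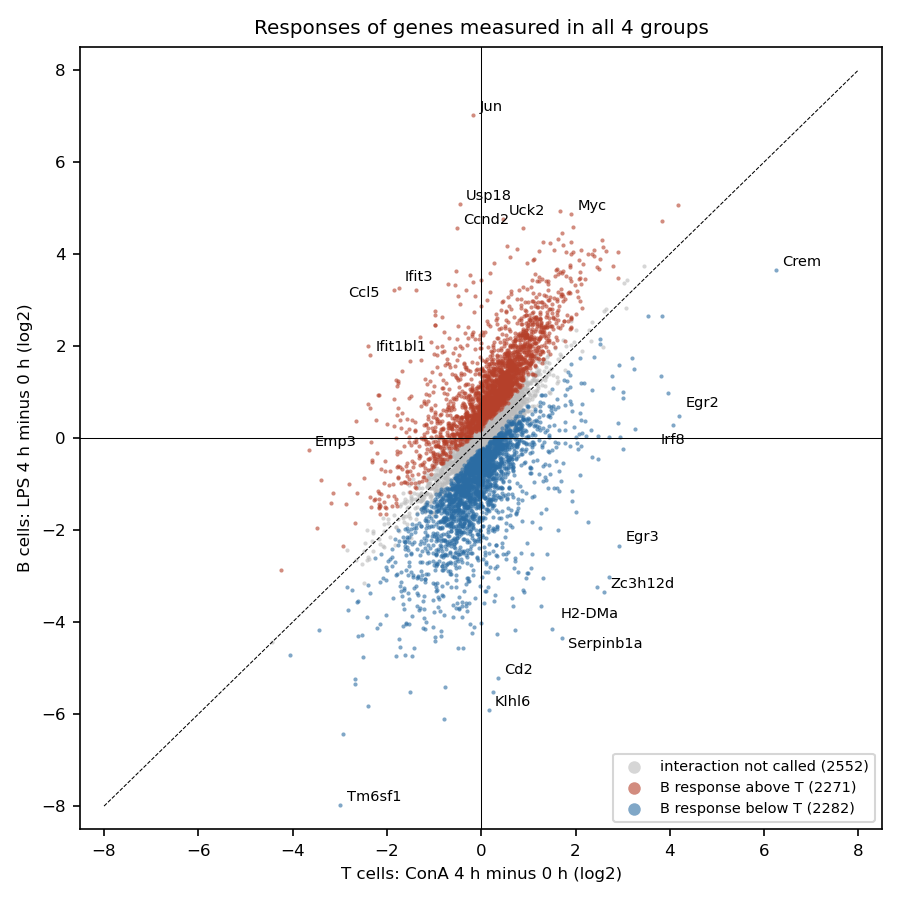
Response of B cells to LPS (vertical axis, log2) against response of T cells to ConA (horizontal axis, log2) for the 7105 genes measured in all 4 groups, 1 point per gene; the dashed line marks equal responses. Points above the line in red are the 2271 called genes with a B response above the T response, and Jun stands highest with a B response of 7.02 and a T response of -0.17.

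Myc rose in both lineages and more in B cells. It read 6.92, 7.21 and 7.29 on the B cell arrays at 0 h, 12.15, 11.81 and 12.07 on those given LPS, 8.38, 6.88 and 7.80 on the T cell arrays at 0 h and 8.37, 10.21 and 10.19 on those given ConA. All B arrays were apart between the times, whereas the first ConA array lay within the T arrays at 0 h. The interaction was 2.96 ± 0.61 (SE; adjusted p = 0.00069). That ConA array and the second T array at 0 h also stood apart on control probe sets, and without both the interaction was 2.75.

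The type I interferon and antiviral list, genes that cells switch on against viruses through interferon receptors or directly through Toll-like receptors, had 25 tested members. The B response was above the T response for 22 of them and below for 2. The median interaction was 2.96 against -0.03 over all genes tested. Of the 25 members, 15 were measured in all 4 groups and 4 were at the floor in T cells. Members rose in B cells (23 of 25, median response 2.63) and more of them fell than rose in T cells (13 fell and 6 rose, median -0.33, or -0.11 with the mean of all probe sets of a gene). In 13 members B cells rose while T cells fell, and in 1, Gbp3, the responses were reversed. Stat2, a subunit of the factor that binds the motif above, had the only interaction that was not called, at 0.08 ± 0.69 (SE), and its sign changed when single T arrays were left out.

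Ifit1, whose product binds viral RNA, read 2.35, 2.75 and 2.31 on the B cell arrays at 0 h, 9.85, 9.80 and 9.85 on those given LPS, 7.05, 7.35 and 6.68 on the T cell arrays at 0 h and 5.45, 4.54 and 4.54 on those given ConA. It was near the floor in resting B cells and, after LPS, brighter there than on any T array, and the times did not overlap in either lineage. The interaction was 9.55 ± 0.31 (SE; adjusted p = 9.48e-12). With the B value at 0 h so close to the floor, it is a lower bound. Ifit3, of the same family, read 8.42, 8.40 and 8.31 on the B cell arrays at 0 h, 11.78, 11.59 and 11.59 on those given LPS, 7.52, 7.30 and 7.39 on the T cell arrays at 0 h and 5.01, 5.97 and 5.97 on those given ConA. B cells were above T cells at both times and the gap was wider after 4 h. Its interaction was 5.02 ± 0.29 (SE; adjusted p = 3.2e-09).

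Ifit2 gave 3.22 in B cells and -1.39 in T cells, an interaction of 4.60 ± 0.13, and Ifit1bl1, which is outside the list, gave 1.80 in B cells and -2.36 in T cells, an interaction of 4.17 ± 0.15. Members of the Ifit family are similar in sequence, so that their probe sets may share signal. Usp18, which removes the ubiquitin-like Isg15 from proteins, read 6.32, 5.91 and 6.30 on the B cell arrays at 0 h, 11.19, 11.23 and 11.38 on those given LPS, 7.78, 7.49 and 7.69 on the T cell arrays at 0 h and 6.95, 7.33 and 7.33 on those given ConA. All LPS arrays exceeded all resting B arrays by more than 4 log2 units, and the T arrays moved slightly the other way. Ifih1, a cytoplasmic sensor of viral RNA, read 6.92, 6.87 and 7.28 on the B cell arrays at 0 h, 10.70, 10.69 and 10.58 on those given LPS, 8.12, 8.10 and 7.84 on the T cell arrays at 0 h and 7.38, 7.54 and 7.53 on those given ConA, and the interaction was 4.17 ± 0.16 (SE; adjusted p = 4.41e-11). Irf7, the factor that amplifies interferon production, rose by 3.34 in B cells and fell by 0.71 in T cells.

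Also outside the list, the same opposite pattern was seen in Slfn8 of the Schlafen family, with 1.67 in B cells and -1.50 in T cells, an interaction of 3.18 ± 0.10, and in Rnf213, a ubiquitin ligase, with 2.19 in B cells and -1.31 in T cells, an interaction of 3.50 ± 0.10. Gbp2 and Gbp3, guanylate-binding proteins that interferon gamma also induces, went against the list, and their sequences are alike enough that signal may be shared. Gbp2 read 8.04, 8.14 and 8.15 on the B cell arrays at 0 h, 8.47, 8.21 and 8.25 on those given LPS, 10.49, 10.68 and 10.57 on the T cell arrays at 0 h and 13.93, 13.77 and 13.83 on those given ConA. Its T arrays rose by 3.26 and its B arrays by only 0.20, so that the interaction was -3.06 ± 0.11 (SE; adjusted p = 3.11e-11). Gbp3 fell by 0.42 in B cells and rose by 2.36 in T cells. The gene of interferon gamma itself, Ifng, was at the floor in B cells and rose by 2.59 in T cells. Cxcl10, a chemokine, rose in both lineages, by 8.62 in B cells and 4.74 in T cells.

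Calcium, NFAT and Egr targets of antigen receptors showed the reverse balance. All 23 tested members rose in T cells, with a median response of 2.93, and 15 rose and 3 fell in B cells, with a median of 0.80. The interaction was below 0 for 16 members and above 0 for 6. Only 11 of the 23 were measured in all 4 groups, and 5 were at the floor in B cells. Egr3, a zinc finger factor induced by calcium and ERK signals, read 11.18, 11.33 and 11.23 on the B cell arrays at 0 h, 9.04, 8.85 and 8.83 on those given LPS, 9.82, 9.87 and 9.60 on the T cell arrays at 0 h and 12.59, 12.72 and 12.76 on those given ConA. The lineages crossed: B cells were the brighter at 0 h and T cells after 4 h, with no overlap within either lineage. The interaction was -5.26 ± 0.13 (SE; adjusted p = 5.62e-13).

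Egr2, a close relative, read 7.67, 7.57 and 7.43 on the B cell arrays at 0 h, 8.21, 8.20 and 7.72 on those given LPS, 8.76, 8.55 and 8.51 on the T cell arrays at 0 h and 12.93, 12.58 and 12.90 on those given ConA. Its T cells rose by 4.20 and its B cells by 0.49, and the interaction was -3.71 ± 0.19 (SE; adjusted p = 1.14e-09). Irf4, a factor that both lineages need for their effector programmes, read 10.01, 9.98 and 9.996 on the B cell arrays at 0 h, 12.57, 12.64 and 12.63 on those given LPS, 5.15, 5.19 and 4.20 on the T cell arrays at 0 h and 13.05, 13.25 and 13.15 on those given ConA. Resting B cells already had it at a high level, resting T cells were under 6, and after 4 h both lineages stood within 1 log2 unit of each other. Crem, a cAMP-responsive regulator, rose by 3.65 in B cells and 6.26 in T cells, with an interaction of -2.61 ± 0.18 (SE; adjusted p = 2.09e-08). The members that went the other way were Myc, Il2ra, Nr4a1, Nr4a3, Cd69 and Orai1. Il2ra, the alpha chain of the IL-2 receptor, read 2.41, 2.41 and 2.59 on the B cell arrays at 0 h, 10.19, 10.31 and 10.27 on those given LPS, 5.56, 4.88 and 5.06 on the T cell arrays at 0 h and 9.12, 9.18 and 9.16 on those given ConA. It was near the floor in resting B cells, and the B cells after LPS were brighter than the T cells after ConA.

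NF-kappaB genes were split. Of 22 tested members, 18 rose in each lineage, and the interaction was above 0 for 11, below 0 for 7 and not called for 4, with a median of 0.41. Among the members with a larger B response, Nfkbiz, an atypical inhibitor that also activates secondary response genes, read 10.04, 10.18 and 9.95 on the B cell arrays at 0 h, 14.04, 13.98 and 13.94 on those given LPS, 11.16, 10.93 and 10.96 on the T cell arrays at 0 h and 11.53, 11.66 and 11.66 on those given ConA, with an interaction of 3.33 ± 0.11 (SE; adjusted p = 1.61e-11). Traf1, a signalling adaptor, rose by 4.18 in B cells and 0.54 in T cells, and the survival gene Bcl2l1 by 4.32 and 1.62. The tested subunit genes had a larger T response or no call: Relb had an interaction of -1.72 ± 0.12, Nfkb2 of -1.34 ± 0.18 and Rela of -0.71 ± 0.12, while that of Rel, -0.25 ± 0.22, was not called. The subunit gene Nfkb1 had no probe set of its own and was not tested. Tnfaip2 was the member that rose in B cells (0.94) and fell in T cells (-2.17).

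Immediate early and AP-1 genes had 11 interactions above 0 and 5 below among 21 tested members, and for several of them the lineages already differed at 0 h. Jun, an AP-1 subunit, read 5.92, 6.22 and 4.89 on the B cell arrays at 0 h, 12.73, 12.67 and 12.70 on those given LPS, 9.85, 9.89 and 10.02 on the T cell arrays at 0 h and 9.80, 9.77 and 9.68 on those given ConA. Resting T cells were more than 3 log2 units brighter than resting B cells, LPS took B cells past them, and the T response of -0.17 was not called. The interaction was 7.19 ± 0.33 (SE; adjusted p = 2.72e-10). Fos, the partner of Jun, read 4.18, 3.67 and 3.67 on the B cell arrays at 0 h, 7.74, 7.84 and 7.92 on those given LPS, 11.35, 11.38 and 11.27 on the T cell arrays at 0 h and 11.03, 11.01 and 10.99 on those given ConA, and unlike Jun it stayed lower in LPS-treated B cells than in T cells. Klf10, a repressor, rose by 1.81 in B cells and fell by 0.47 in T cells. Maff and Fosl2 rose more in T cells, with interactions of -2.03 ± 0.21 and -1.89 ± 0.13.

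Heat shock genes included large positive interactions. Hspa1b, an inducible cytosolic chaperone, read 4.41, 4.51 and 4.41 on the B cell arrays at 0 h, 10.94, 10.96 and 11.01 on those given LPS, 12.45, 12.49 and 12.60 on the T cell arrays at 0 h and 7.75, 7.14 and 7.36 on those given ConA. It was high in T cells at 0 h and low after ConA, and low in B cells at 0 h and high after LPS, with no overlap. The interaction was 11.63 ± 0.18 (SE; adjusted p = 6.46e-15). Hspa1a read 2.24 throughout on the B cell arrays at 0 h, 8.91, 8.87 and 8.98 on those given LPS, 8.52, 8.44 and 8.48 on the T cell arrays at 0 h and 4.37, 4.12 and 4.02 on those given ConA, with an interaction of 10.99 ± 0.12 (SE; adjusted p = 2.39e-16), which is a lower bound because its resting B arrays were at the floor. These genes are near-identical, and it is uncertain how far their probe sets tell them apart. Of the 19 tested chaperone genes, 18 had an interaction above 0 and 0 below. That of Dnajb1 was not called, at 0.13 ± 0.08; it was called at 0.44 with the mean of all its probe sets (limma adjusted p = 0.00402) and at 0.13 without the filter on dim genes (limma adjusted p = 0.0342). Apart from the Hspa1 genes these interactions were of moderate size: the chaperonin subunit Cct3 rose by 1.92 in B cells and 0.79 in T cells.

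Among the Ras-ERK feedback genes, which damp the pathway once it is active, the interaction was below 0 for 10 of 15 tested members and above 0 for 4. Dusp6, a phosphatase of ERK, read 10.45, 10.41 and 10.35 on the B cell arrays at 0 h, 3.13, 3.01 and 3.05 on those given LPS, 9.08, 8.81 and 9.05 on the T cell arrays at 0 h and 8.74, 9.03 and 9.21 on those given ConA. It fell from a high level to under 4 in B cells, and the T response of 0.01 was not called. The interaction was -7.35 ± 0.15 (SE; adjusted p = 9.77e-14). Dusp16, a phosphatase of JNK and p38, rose by 2.91 in T cells and 0.33 in B cells. Dusp5 and Dusp1 had a B response above the T response, with interactions of 2.53 ± 0.13 and 2.28 ± 0.12.

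Genes of the B cell receptor pathway fell in B cells. Of 16 tested B cell receptor genes, 13 fell and 2 rose after LPS, with a median response of -2.00, against 0.07 in T cells. Of their interactions, 13 were below 0 and 1 above. Only 6 of the 16 were measured in all 4 groups, and 5 were at the floor in T cells. Cd22, an inhibitory coreceptor, read 13.55, 13.59 and 13.65 on the B cell arrays at 0 h, 8.80, 8.88 and 8.24 on those given LPS, 5.0, 5.32 and 5.22 on the T cell arrays at 0 h and 5.09, 4.79 and 5.0 on those given ConA. Cr2, a complement receptor, read 13.73, 13.69 and 13.74 on the B cell arrays at 0 h, 11.79, 11.66 and 11.72 on those given LPS, 3.25, 3.25 and 2.76 on the T cell arrays at 0 h and 6.05, 6.42 and 6.48 on those given ConA. It fell in B cells and rose in T cells from near the floor, with an interaction of -5.23 ± 0.25 (SE; adjusted p = 5.47e-10). Dapp1, an adaptor downstream of PI3-kinase, fell by 3.05 in B cells and rose by 0.95 in T cells. The 1 interaction above 0 was that of Cd72, a coreceptor, which rose by 0.73 in B cells and fell by 2.40 in T cells.

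Of 22 tested Toll-like receptor genes, 16 fell in B cells. The interaction was below 0 for 13 and above 0 for 4, with a median of -0.55. Only 10 of the 22 were measured in all 4 groups, and 7 were at the floor in T cells. Tlr4, the LPS receptor, read 7.30, 6.67 and 6.98 on the B cell arrays at 0 h, 2.24 throughout on those given LPS, 2.24 throughout on the T cell arrays at 0 h and 2.24 throughout on those given ConA. It was on the floor on every array other than those of resting B cells. Ly96, its partner, fell by 4.03 in B cells and by 0.49 in T cells, whose values were all under 4. Ikbke, a kinase of the interferon branch, was the member that rose in B cells, by 2.77, and fell in T cells, by 0.98. The macrophage and monocyte markers fell with this group: 12 of 13 tested fell in B cells with a median response of -4.40. The summed level of a marker list is the log2 of the sum of its linear signals. For these markers it went from 13.73–13.78 at 0 h to 11.62–11.85 after LPS, and the marker C1qa went from 9.50 ± 0.15 to the floor. The exception was Mpeg1, which went from 11.15 ± 0.10 to 11.48 ± 0.13, a response that was not called, and holds most of the sum after LPS. The summed level was 9.22–9.66 in T cells at 0 h and 8.67–8.93 after ConA, with 10 of the 15 on the arrays at the floor at 0 h. Their part in the falls of Tlr4 and its partners was not tested.

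MHC class II genes, which present antigen to helper T cells, moved apart. Of 14 tested members, 13 fell in B cells, and 7 of these rose in T cells; the interaction was below 0 for 11, with a median of -1.22. H2-DMa, a chain of the peptide exchange factor, read 12.11, 12.10 and 12.12 on the B cell arrays at 0 h, 7.93, 7.99 and 7.97 on those given LPS, 7.77, 7.85 and 7.63 on the T cell arrays at 0 h and 9.34, 9.19 and 9.22 on those given ConA. Resting B cells were the brightest group and LPS-treated B cells were dimmer than the activated T cells, with an interaction of -5.65 ± 0.11 (SE; adjusted p = 4.68e-14). H2-DMb2, a chain of the same complex, had an interaction of -4.36 ± 0.13. The class II molecules themselves changed less: H2-Aa fell by 0.61 in B cells and rose by 0.41 in T cells, and Cd74, the invariant chain, fell by 0.46 and rose by 0.65.

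Regulators of class II fell further. Ciita, the master activator of these genes, read 9.04, 9.13 and 9.13 on the B cell arrays at 0 h, 5.46, 3.32 and 5.32 on those given LPS, 2.26, 2.37 and 2.30 on the T cell arrays at 0 h and 2.38, 2.47 and 2.38 on those given ConA. Marchf1, a ubiquitin ligase that removes class II from the surface, read 11.70, 11.52 and 11.69 on the B cell arrays at 0 h, 2.28, 2.24 and 2.24 on those given LPS, 2.27, 2.24 and 2.24 on the T cell arrays at 0 h and 2.24 throughout on those given ConA; its B arrays fell by at least 9.38, to the floor. B cell markers in the T cell arrays moved unevenly alongside the class II rise. Of 11 tested, 5 rose and 2 fell after ConA, and their summed level was 9.50–9.72 at 0 h and 9.07–9.32 after ConA. Cd72, the brightest of them in T cells at 0 h, went from 8.67 to 6.27, and Cd79b from 7.65 to 7.11. Cr2 went from 3.09 to 6.32 and Fcer2a from 4.20 to 6.08. Ms4a1 read 6.08 ± 0.68 and 7.03 ± 0.44, and Cd79a read 2.34 in both T groups. Their part in the class II rise was not tested.

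Cytokine and chemokine genes divided by lineage, and many were at the floor in 1 of the lineages. Among the tested genes, 6 were measured in all 4 groups, 8 were at the floor in B cells and 6 in T cells. Of 27 tested, 11 had an interaction above 0 and 14 below; 14 rose in B cells and 18 in T cells, with median responses of 0.38 and 2.34, or 0.66 and 1.76 with the mean of all probe sets of a gene. Ccl5, a chemokine that attracts T cells and monocytes, read 6.98, 6.61 and 6.51 on the B cell arrays at 0 h, 9.92, 9.91 and 9.90 on those given LPS, 11.69, 11.77 and 11.68 on the T cell arrays at 0 h and 10.12, 9.74 and 9.71 on those given ConA. It was over 4 log2 units brighter in T cells at 0 h, and after 4 h the B and T arrays stood within 1 unit of each other. The interaction was 5.07 ± 0.17 (SE; adjusted p = 1.07e-11). Il6 rose strongly in both lineages, by 8.36 in B cells and 7.96 in T cells, and its interaction was only 0.40 ± 0.10. Il1b and Ccl3 rose in both and more in B cells, with interactions of 3.77 ± 0.21 and 3.15 ± 0.11, whereas Tnf rose more in T cells, at -1.999 ± 0.17. Lta, made by lymphocytes for lymphoid tissue, fell by 1.32 in B cells and rose by 0.78 in T cells.

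Receptors and feedback genes of cytokines were balanced, with 9 interactions on each side of 0 among 23 tested receptors and 10 above and 8 below among 21 feedback and Stat genes. Il7r, the receptor that keeps naive T cells alive, read 3.58, 2.77 and 3.58 on the B cell arrays at 0 h, 6.45, 6.44 and 6.08 on those given LPS, 13.08, 12.99 and 12.93 on the T cell arrays at 0 h and 11.46, 11.49 and 11.50 on those given ConA. It rose in B cells and fell in T cells, which stayed far brighter. Il4ra, Ifngr1 and Csf2rb fell in B cells and rose in T cells, with interactions of -2.30 ± 0.09, -2.50 ± 0.17 and -2.61 ± 0.21. Socs3, an inhibitor of cytokine signalling, rose by 3.60 in B cells from a resting level of 7.22 ± 0.16 against 11.05 ± 0.04 in T cells. Socs1, a relative, had both B means under 4 and rose by 3.62 in T cells. Irf8, a factor of B cell and myeloid identity, read 12.34, 12.24 and 12.28 on the B cell arrays at 0 h, 12.48, 12.66 and 12.59 on those given LPS, 6.54, 6.85 and 6.48 on the T cell arrays at 0 h and 10.82, 10.68 and 10.55 on those given ConA. It rose by more than 4 log2 units in T cells toward the level that B cells held throughout, with an interaction of -3.78 ± 0.14 (SE; adjusted p = 2.71e-11).

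Costimulatory genes had 13 interactions below 0 and 4 above among 21 tested. Of these 21, 7 were measured in all 4 groups, 5 were at the floor in B cells and 2 in T cells. Cd80 and Cd86, the ligands of Cd28 on antigen-presenting cells, rose by 4.30 and 3.87 in B cells, with Cd80 at the floor in T cells. Pdcd1, the PD-1 receptor, was at the floor in B cells and rose by 3.13 in T cells. Slamf1, a homophilic receptor present in both lineages, fell by 0.24 in B cells and rose by 3.003 in T cells, and Tnfrsf14 fell by 1.67 and rose by 2.001. Cd2, an adhesion receptor, read 10.93, 10.88 and 10.97 on the B cell arrays at 0 h, 5.49, 6.0 and 5.67 on those given LPS, 12.29, 12.36 and 12.29 on the T cell arrays at 0 h and 12.70, 12.62 and 12.68 on those given ConA. Its B arrays fell by more than 5 log2 units while the T arrays rose slightly.

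Biosynthetic genes rose in both lineages and further in B cells. Of 40 ribosome biogenesis genes, 40 rose in B cells and 38 in T cells, with median responses of 2.41 and 1.21, and the interaction was above 0 for 39 and below for 0; that of Ncl, at 0.40 ± 0.20, was not called, though it was 1.07 and called when all probe sets of the gene were averaged. Rrp12, a factor of ribosome assembly and export, read 5.42, 5.22 and 4.93 on the B cell arrays at 0 h, 9.79, 9.70 and 9.85 on those given LPS, 7.32, 7.45 and 7.43 on the T cell arrays at 0 h and 9.42, 9.36 and 9.27 on those given ConA. B cells started about 2 log2 units below T cells and ended above them on each array, with an interaction of 2.64 ± 0.14 (SE; adjusted p = 1.62e-09). Polr1b, a subunit of RNA polymerase I, rose by 3.72 in B cells and 2.45 in T cells. Ubtf, a polymerase I factor, was the member that fell in T cells, by 0.26.

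The other growth lists also held more calls above 0 than below. Nucleotide and one-carbon synthesis had 20 of 23 interactions above 0 (median 1.27), with Mthfd2, a mitochondrial folate enzyme, at 4.10 in B cells and 0.75 in T cells, an interaction of 3.35 ± 0.19. Odc1, the polyamine enzyme, was the 1 member below 0, at -0.93 ± 0.13. Aminoacyl-tRNA synthetases had 17 of 19 above 0 (median 1.44), Yars being the largest at 2.98 ± 0.11 and Vars the 1 below 0 at -0.86 ± 0.11. Sterol synthesis had 13 of 17 above 0 with a median of 2.05, and its median B response was 3.28; with the mean of all probe sets of a gene these medians were 1.21 and 1.87. Sqle, the squalene epoxidase, read 4.97, 5.18 and 5.14 on the B cell arrays at 0 h, 10.06, 10.05 and 9.99 on those given LPS, 6.95, 6.78 and 6.84 on the T cell arrays at 0 h and 8.45, 8.56 and 8.60 on those given ConA. It was lower in B than in T cells at 0 h and higher after 4 h, without overlap. Asns, the asparagine synthetase among Atf4 targets, rose by 4.26 in B cells and 1.31 in T cells, and 12 of 15 genes of its list had an interaction above 0.

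In other housekeeping lists the counts were smaller. The proteasome list had 18 interactions above 0 and 4 below among 30, with a median of 0.34, and the 4 below were the immunoproteasome subunits Psmb8, Psmb9 and Psmb10 and the subunit Psma1. Averaging all probe sets of a gene ended the calls of Psmb8 and Psma1, at -0.36 and -0.12. Oxidative phosphorylation had 9 above, 2 below and 13 not called. Of 20 cytoplasmic ribosomal proteins, 17 were not called, and such genes have near-identical copies elsewhere in the genome that may share signal. Lysosome and autophagy genes leaned the other way, with 14 of 21 below 0 and a median of -0.88, led by Ctsh, a lysosomal protease, at -2.77 ± 0.17. Of the 13 tested macrophage and monocyte markers, 12 also fell in B cells, with a median B response of -4.40, and their part in the lysosome values was not tested.

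Some lists were split without a clear balance. T cell receptor genes had 9 interactions above 0 and 5 below among 20 tested, 14 of them at the floor in B cells. Chromatin and DNA methylation enzymes had 9 above and 8 below among 21, folding and stress genes of the endoplasmic reticulum 5 and 7 among 20, and the Bcl2 family 5 and 3 among 11. Glycolysis and glucose uptake had 7 above and 3 below among 17, with Hk2, which traps glucose in the cell, at 1.83 ± 0.30. Egress, homing and adhesion genes had 7 above and 12 below among 21.

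Cell cycle genes had not risen as a group at 4 h. Of 25 replication and G1/S genes tested, 8 rose in B cells and 5 in T cells, and 13 interactions were above 0 and 7 below. All 18 mitosis genes tested fell in B cells and 16 fell in T cells, and 12 interactions were not called. Ccnd2, the cyclin D2 of the first growth phase, read 9.13, 9.23 and 9.30 on the B cell arrays at 0 h, 13.78, 13.79 and 13.79 on those given LPS, 12.46, 12.36 and 12.63 on the T cell arrays at 0 h and 11.85, 11.999 and 12.04 on those given ConA. LPS took B cells from about 3 log2 units below T cells to above them, and T cells fell slightly, so that the interaction was 5.09 ± 0.11 (SE; adjusted p = 1.4e-13). Cdk6, its kinase partner, rose by 2.01 in B cells and fell by 0.46 in T cells. E2f2 was not called in B cells and fell by 2.995 in T cells.

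Most quiescence genes fell in both lineages. Of 23 quiescence genes, 16 fell in B cells and 17 in T cells, with 11 interactions below 0 and 6 above. Mxd4, an antagonist of Myc, read 9.24, 9.17 and 9.37 on the B cell arrays at 0 h, 3.46, 3.46 and 2.69 on those given LPS, 9.25, 9.49 and 9.29 on the T cell arrays at 0 h and 7.26, 6.996 and 6.99 on those given ConA. S1pr1, the receptor that lets lymphocytes leave lymphoid organs, read 11.52, 11.47 and 11.56 on the B cell arrays at 0 h, 3.62, 2.91 and 3.43 on those given LPS, 11.34, 11.09 and 11.49 on the T cell arrays at 0 h and 10.07, 10.18 and 10.09 on those given ConA. Both fell toward the floor in B cells and stayed well above it in T cells, and the interaction of S1pr1 was -7.004 ± 0.20 (SE; adjusted p = 3.57e-12). Ccr7, the homing receptor for T cell zones, rose by 3.44 in B cells and was not called in T cells, where it stood at 12.42 ± 0.26 at 0 h.

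Lineage factors shifted as well. Bach2, a repressor that holds both lineages in a naive state, read 11.74, 11.68 and 11.75 on the B cell arrays at 0 h, 9.22, 9.14 and 9.24 on those given LPS, 11.35, 11.39 and 11.33 on the T cell arrays at 0 h and 12.45, 12.40 and 12.46 on those given ConA, with an interaction of -3.60 ± 0.08 (SE; adjusted p = 1.15e-13). Ikzf3, of the Ikaros family, fell by 3.65 in B cells and rose by 1.27 in T cells, whereas Id2, an inhibitor of E proteins, rose by 2.66 and fell by 0.98. Of 24 tested members, 13 had an interaction below 0 and 6 above. Of the 24, 12 were measured in all 4 groups, and 4 were at the floor in each lineage.

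**Figure D3:**
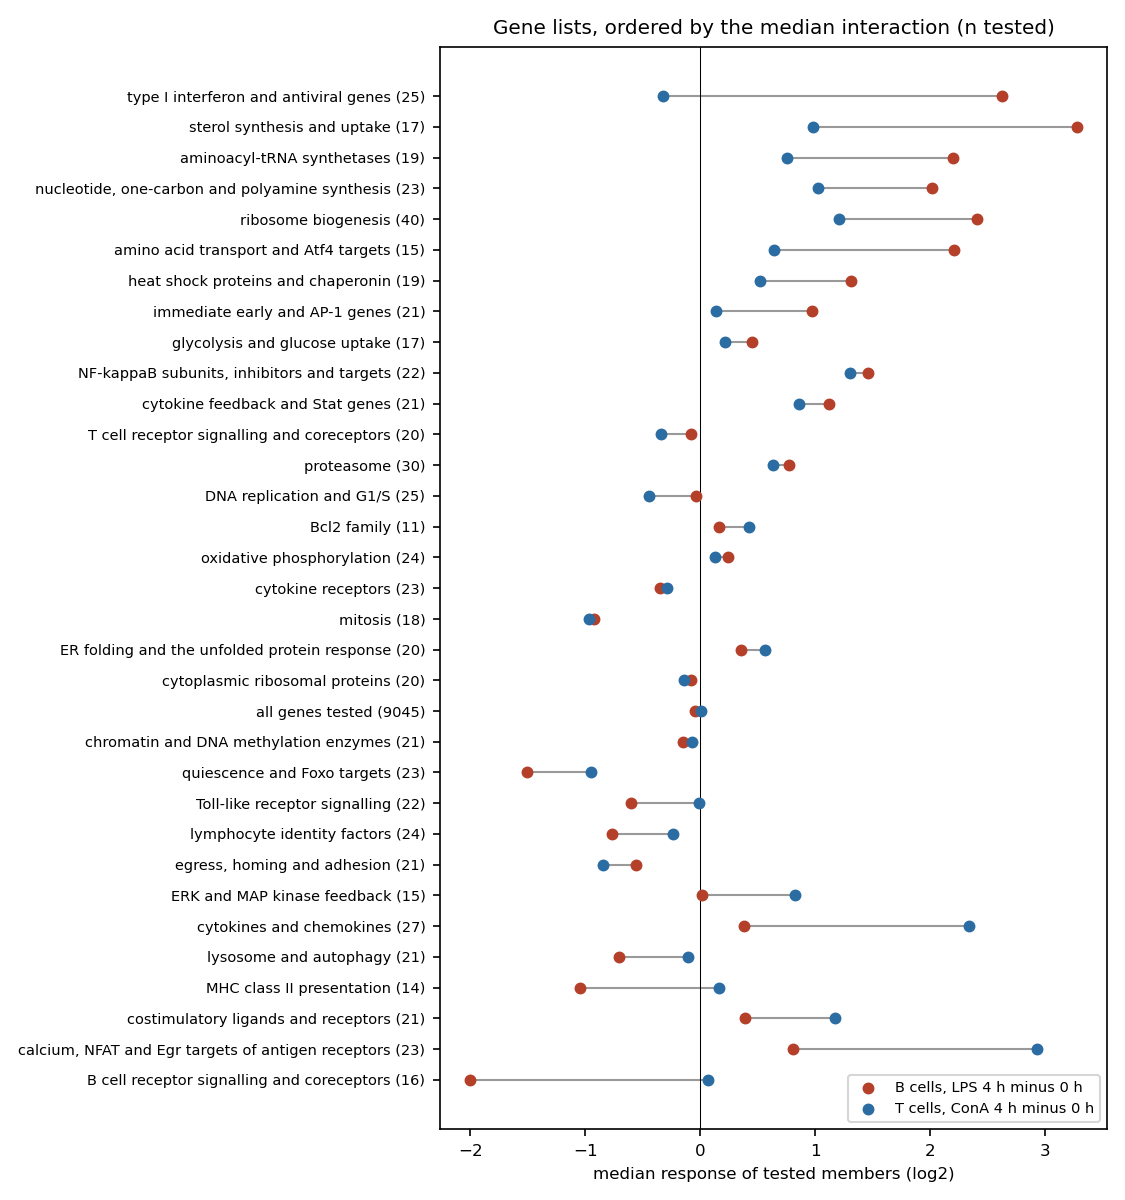
Median response of the tested members of each gene list in B cells (red) and T cells (blue), log2 scale, with the number tested in brackets and the lists ordered by their median interaction; the bottom of the plot holds the lowest. The interferon list has the widest gap in favour of B cells, at 2.63 against -0.33, and the B cell receptor list and the calcium, NFAT and Egr list the widest in favour of T cells.

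Opposite responses were called for 534 of the 7105 measured genes, or 7.52%, which is 11.7% of their called interactions. B cells rose and T cells fell for 245, and B cells fell and T cells rose for 289. In 491 the arrays of the 2 times were apart in both lineages. Both responses reached 2-fold in 18 of the first kind and 26 of the second. From each kind the 8 largest by the smaller of the 2 responses were taken, among genes with a group mean of at least 7. Antigen receptor segments, RIKEN clones and unnamed predicted genes were left out. These 16 include Ccl5, Ifit1bl1, Ifit3, Ifit2, Slfn8, Rnf213 and Egr3, given above.

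The others that rose in B cells and fell in T cells were Pik3r5 and Myo1g. Pik3r5, a regulatory subunit of the leukocyte PI3-kinase gamma, read 6.39, 6.44 and 4.95 on the B cell arrays at 0 h, 8.02, 7.88 and 7.85 on those given LPS, 9.85, 9.81 and 9.71 on the T cell arrays at 0 h and 7.50, 7.34 and 7.33 on those given ConA. Resting T cells were its brightest group, and the lineages came to nearly the same level after 4 h. The interaction was 4.39 ± 0.39 (SE; adjusted p = 3.1e-07). Myo1g, a membrane-bound myosin of lymphocytes, gave 1.45 in B cells and -1.68 in T cells, an interaction of 3.13 ± 0.14.

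The others that fell in B cells and rose in T cells began with Zc3h12d, an RNA-binding protein of the Regnase family, which read 8.65, 8.65 and 8.70 on the B cell arrays at 0 h, 5.60, 4.78 and 5.57 on those given LPS, 8.01, 7.82 and 7.86 on the T cell arrays at 0 h and 10.42, 10.60 and 10.49 on those given ConA. Its lineages were within 1 log2 unit at 0 h and over 4 units apart after 4 h, with an interaction of -5.95 ± 0.23 (SE; adjusted p = 6.06e-11). Serpinb1a, an inhibitor of leukocyte serine proteases, read 12.59, 12.62 and 12.64 on the B cell arrays at 0 h, 8.35, 8.27 and 8.21 on those given LPS, 5.67, 6.08 and 5.74 on the T cell arrays at 0 h and 7.44, 7.39 and 7.81 on those given ConA, with an interaction of -6.06 ± 0.19 (SE; adjusted p = 6.98e-12). Arid5b, a DNA-binding chromatin factor, gave -1.82 in B cells and 2.25 in T cells, an interaction of -4.07 ± 0.16. Sla, an adaptor that lowers antigen receptor signalling, gave -1.99 in B cells and 1.62 in T cells, an interaction of -3.62 ± 0.12, and the kinase Bmp2k gave -1.60 in B cells and 2.01 in T cells, an interaction of -3.61 ± 0.14.

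S100a8 and S100a9, the calcium-binding proteins that together form calprotectin of neutrophils, had the same orientation. S100a8 read 10.20, 10.10 and 10.32 on the B cell arrays at 0 h, 6.91, 7.43 and 7.24 on those given LPS, 7.36, 7.68 and 7.40 on the T cell arrays at 0 h and 10.58, 10.08 and 9.91 on those given ConA. S100a9 read 8.53, 8.58 and 9.07 on the B cell arrays at 0 h, 5.98, 5.39 and 5.11 on those given LPS, 5.93, 6.46 and 6.21 on the T cell arrays at 0 h and 8.79, 8.48 and 8.69 on those given ConA. Each was bright in resting B cells and in ConA-treated T cells and dimmer in the other groups. The summed level of the 8 neutrophil markers, in which both genes are included, was 10.60–10.87 in B cells at 0 h, 7.74–7.93 after LPS, 8.27–8.55 in T cells at 0 h and 10.48–11 after ConA. Of these markers 5 were at the floor in each lineage at 0 h, Elane and Cxcr2 among them in every group, and Ngp read 4.95 ± 0.62, 2.78 ± 0.00, 2.76 ± 0.00 and 4.10 ± 0.38 in the same order of groups. Mpo, a granule enzyme, differed the other way: it was at the floor in B cells and went from 5.72 ± 0.22 in T cells at 0 h to 4.33 ± 0.41 after ConA, with an interaction of 1.39 ± 0.23 (SE; adjusted p = 0.000124). The part of such cells in the S100a8 and S100a9 values was not tested.

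**Figure D4:**
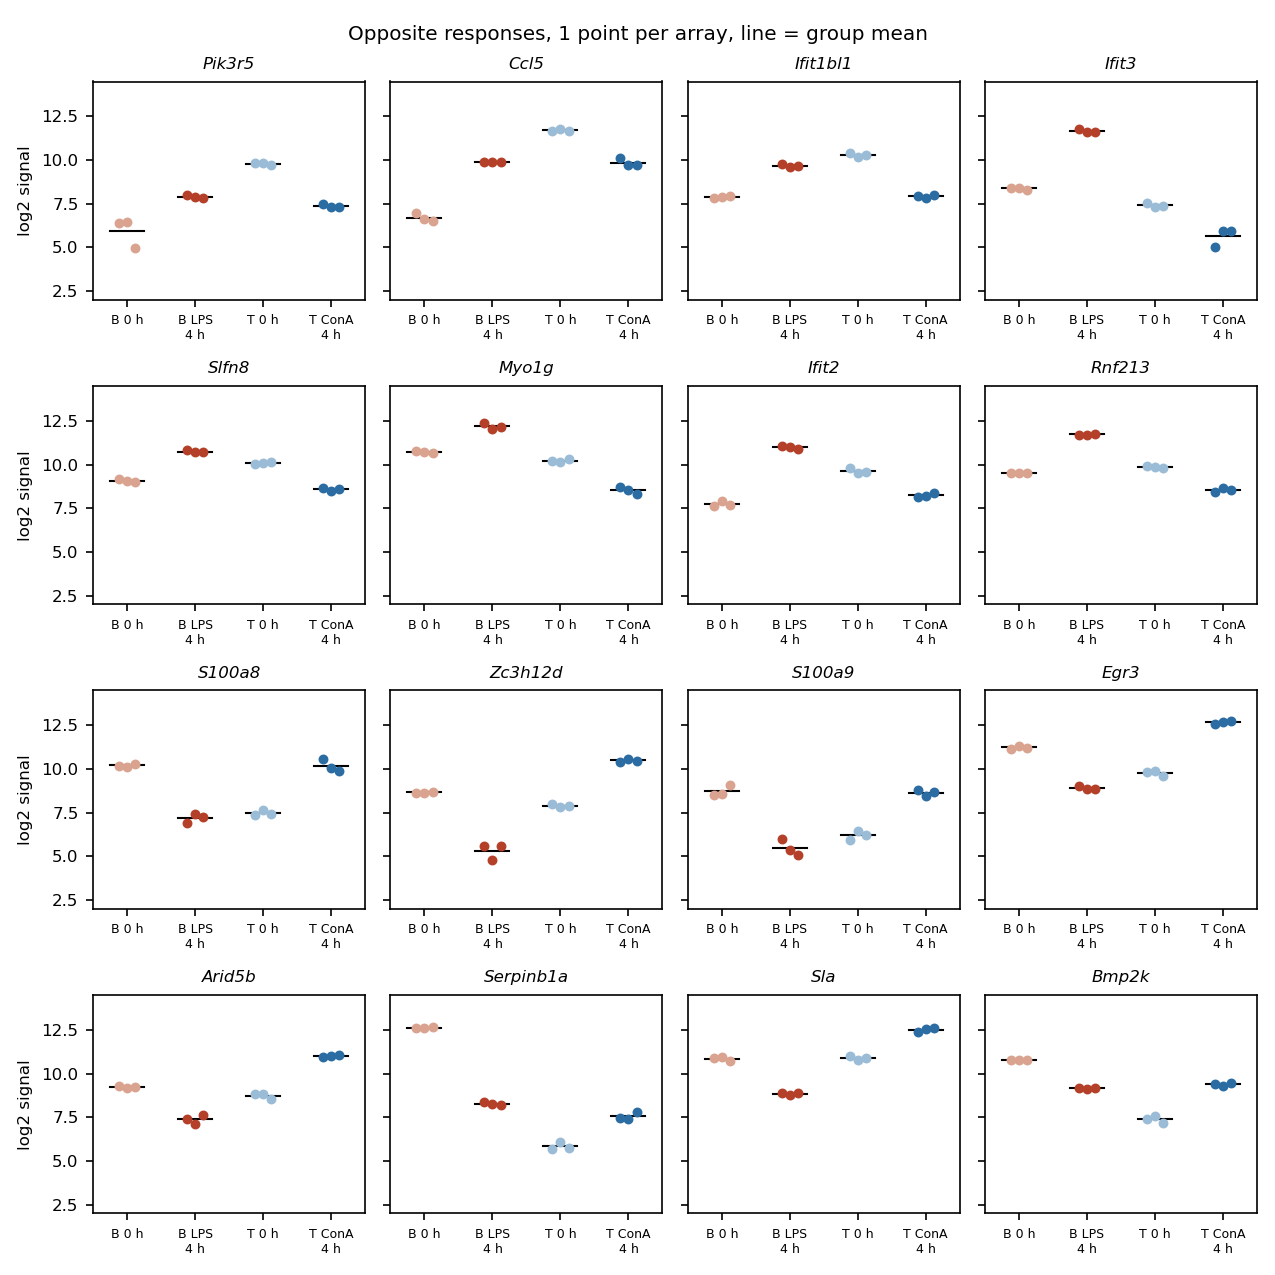
Log2 signal of the 16 measured genes with opposite responses chosen in the text, 8 of each kind. Each array is 1 point, with a line at each group mean, for the 4 groups of the contrast. The upper 8 panels hold genes that rose in B cells and fell in T cells and the lower 8 the reverse; in every panel the arrays of the 2 times are apart in both lineages.

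Among genes whose responses had the same direction, Uck2, which salvages uridine and cytidine, had the largest difference of rises in favour of B cells. It read 5.10, 5.84 and 5.51 on the B cell arrays at 0 h, 10.25, 10.18 and 10.30 on those given LPS, 9.54, 9.63 and 9.36 on the T cell arrays at 0 h and 10.19, 9.86 and 9.83 on those given ConA. Resting B cells were over 3 log2 units below resting T cells, and after 4 h the lineages were within 1 unit. The interaction was 4.31 ± 0.21 (SE; adjusted p = 6.11e-10). Plscr1, a phospholipid scramblase, gave 4.56 in B cells and 0.89 in T cells, an interaction of 3.67 ± 0.12. Of the rises that were larger in T cells, Hivep3, a zinc finger protein, gave 0.97 in B cells and 3.97 in T cells, an interaction of -2.997 ± 0.11.

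Tm6sf1, a lysosomal membrane protein, had the largest fall in B cells among measured genes and read 12.98, 13.13 and 12.89 on the B cell arrays at 0 h, 4.84, 5.25 and 4.99 on those given LPS, 10.35, 10.04 and 10.30 on the T cell arrays at 0 h and 6.90, 7.46 and 7.37 on those given ConA. Both lineages fell, by 7.97 and 2.99. Ralgps2, an exchange factor of Ral GTPases, read 12.41, 12.52 and 12.52 on the B cell arrays at 0 h, 6.70, 6.20 and 6.21 on those given LPS, 8.51, 8.82 and 8.47 on the T cell arrays at 0 h and 7.89, 7.67 and 7.88 on those given ConA, with an interaction of -5.33 ± 0.18 (SE; adjusted p = 1.5e-11). Rasgrp1, the exchange factor that links diacylglycerol to Ras, fell by 4.57 in B cells and 0.39 in T cells, Mideas by 4.57 and 0.50, and the phosphatase gene Ctdsp2 by 4.25 and 0.20. Klhl6, an adaptor of a ubiquitin ligase needed by B cells, and Angptl1, a secreted protein, fell by 5.91 and 5.53 in B cells with no call in T cells.

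Among genes that fell further in T cells, Emp3, a membrane protein, read 9.85, 9.89 and 9.94 on the B cell arrays at 0 h, 9.62, 9.65 and 9.60 on those given LPS, 11.53, 11.60 and 11.59 on the T cell arrays at 0 h and 8.25, 7.75 and 7.73 on those given ConA, and the T arrays fell by 3.66 against 0.27 in B cells. Anxa6, an annexin, fell by 3.41 in T cells and 0.91 in B cells, Flna, which cross-links actin, by 2.31 and 0.49, and Lsp1, a leukocyte actin-binding protein, by 2.20 and 0.32. Epsti1 fell by 3.14 in T cells and 1.19 in B cells. The same-direction genes with a larger T fall were 141, of 2340 in all.

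The floor classes give another kind of interaction, in which both means of 1 lineage are under 4. It then comes mostly from the other lineage. Genes at the floor in B cells had a median absolute response of 0.176 in B cells and 1.526 in T cells. Genes at the floor in T cells had 2.87 in B cells and 0.037 in T cells. Of the 316 genes at the floor in B cells, 96 rose and 172 fell in T cells, and of these 84 and 152 had a called interaction. The median response was 1.85 among the rises and -1.76 among the falls. Of the 296 genes at the floor in T cells, 81 rose and 204 fell in B cells, 71 and 194 of them with a called interaction. The medians were 2.73 and -3.05. The lineage at the floor also had a called response in some of these genes. It was B cells in 29 of the 96 and 47 of the 172, and T cells in 18 of the 81 and 31 of the 204. The median distance between the lineages went from 3.57 at 0 h to 3.36 at 4 h for genes at the floor in B cells and from 3.75 to 1.88 for genes at the floor in T cells. A change in the lineage at the floor could not be measured below it, so each such interaction bounds the difference between the lineages only from the measured side.

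T cells switched on cytokines that B cells did not show. Il2, the growth factor of T cells, read 3.24, 2.96 and 3.33 on the B cell arrays at 0 h, 2.96, 2.96 and 3.33 on those given LPS, 3.43, 3.33 and 3.11 on the T cell arrays at 0 h and 8.77, 8.43 and 8.49 on those given ConA. It was near the floor in 3 of the 4 groups, and each ConA array was over 4 log2 units above the others. Il4, the cytokine of helper responses, read 2.39, 2.39 and 2.27 on the B cell arrays at 0 h, 2.39, 2.56 and 2.60 on those given LPS, 2.60 throughout on the T cell arrays at 0 h and 7.44, 7.08 and 7.23 on those given ConA, and Il21 rose by 4.10 and Il17a by 2.84. Xcl1, a chemokine of activated T and NK cells, rose by 4.85 from 7.35 ± 0.15. Spry1, an inhibitor of the ERK pathway, rose by 5.90, and Mpzl2, an adhesion molecule, by 4.72, both from under 3.

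T cell genes that fell while both B cell means were under 4 included Tet1, an enzyme that oxidises methylcytosine. It read 3.71, 3.22 and 3.31 on the B cell arrays at 0 h, 2.24 throughout on those given LPS, 7.76, 7.69 and 7.89 on the T cell arrays at 0 h and 2.39, 2.24 and 2.39 on those given ConA. It reached the floor in both lineages, and the B arrays were under 4 at both times. Scg5, a chaperone of secretory granules, fell by 5.65, the cytoskeletal gene Pdlim4 by 5.52, Lypd6b by 5.35 and the monocarboxylate transporter gene Slc16a5 by 5.26. The means of these 4 ended under 3 in ConA-treated T cells, so these falls are lower bounds.

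B cells switched on another set. Oasl1, an interferon-induced relative of the oligoadenylate synthetases, read 6.03, 4.75 and 4.10 on the B cell arrays at 0 h, 12.25, 12.35 and 12.26 on those given LPS, 3.26, 3.55 and 3.26 on the T cell arrays at 0 h and 3.26 throughout on those given ConA. All T values stayed under 4, and the interaction was 7.43 ± 0.46 (SE; adjusted p = 6.1e-09). Ccl22, a chemokine for helper T cells, rose by 5.86, Adm, the peptide adrenomedullin, by 5.40, Trib3, a stress-induced pseudokinase, by 5.22, and Gad1, a glutamate decarboxylase, by 5.19. Il10, Il12b and Il1a, cytokines of antigen-presenting cells, rose by 4.71, 4.17 and 4.44, all from the floor. Of 3 tested dendritic cell markers, 2 rose and 1 fell on the B cell arrays. Zbtb46 went from 4.865 to 9.49 and Flt3 from 4.99 to 7.29, while Itgax went from 6.08 to 2.34. The part of cells other than B cells in these cytokine rises was not tested.

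Other genes at the floor in T cells fell in B cells as Marchf1 did. Trim7, a ubiquitin ligase, read 10.86, 10.88 and 11.05 on the B cell arrays at 0 h, 3.05, 3.15 and 2.55 on those given LPS, 2.33, 2.36 and 2.36 on the T cell arrays at 0 h and 2.33, 2.36 and 2.33 on those given ConA. Lrrk2, a kinase of leukocytes and other cells, fell by at least 7.88, Srpk3, a kinase of splicing factors, by 7.48, and Pld4, a lysosomal nuclease, by at least 7.36. Each was over 9 in resting B cells and under 5 after LPS, with T cell means under 3. Macrophage markers share this class and this direction: Csf1r, the receptor that defines macrophages, fell by at least 6.97 and C1qa by at least 7.26, and 8 of the 13 tested were at the floor in T cells. Their part in the count of 204 falls was not tested.

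**Figure D5:**
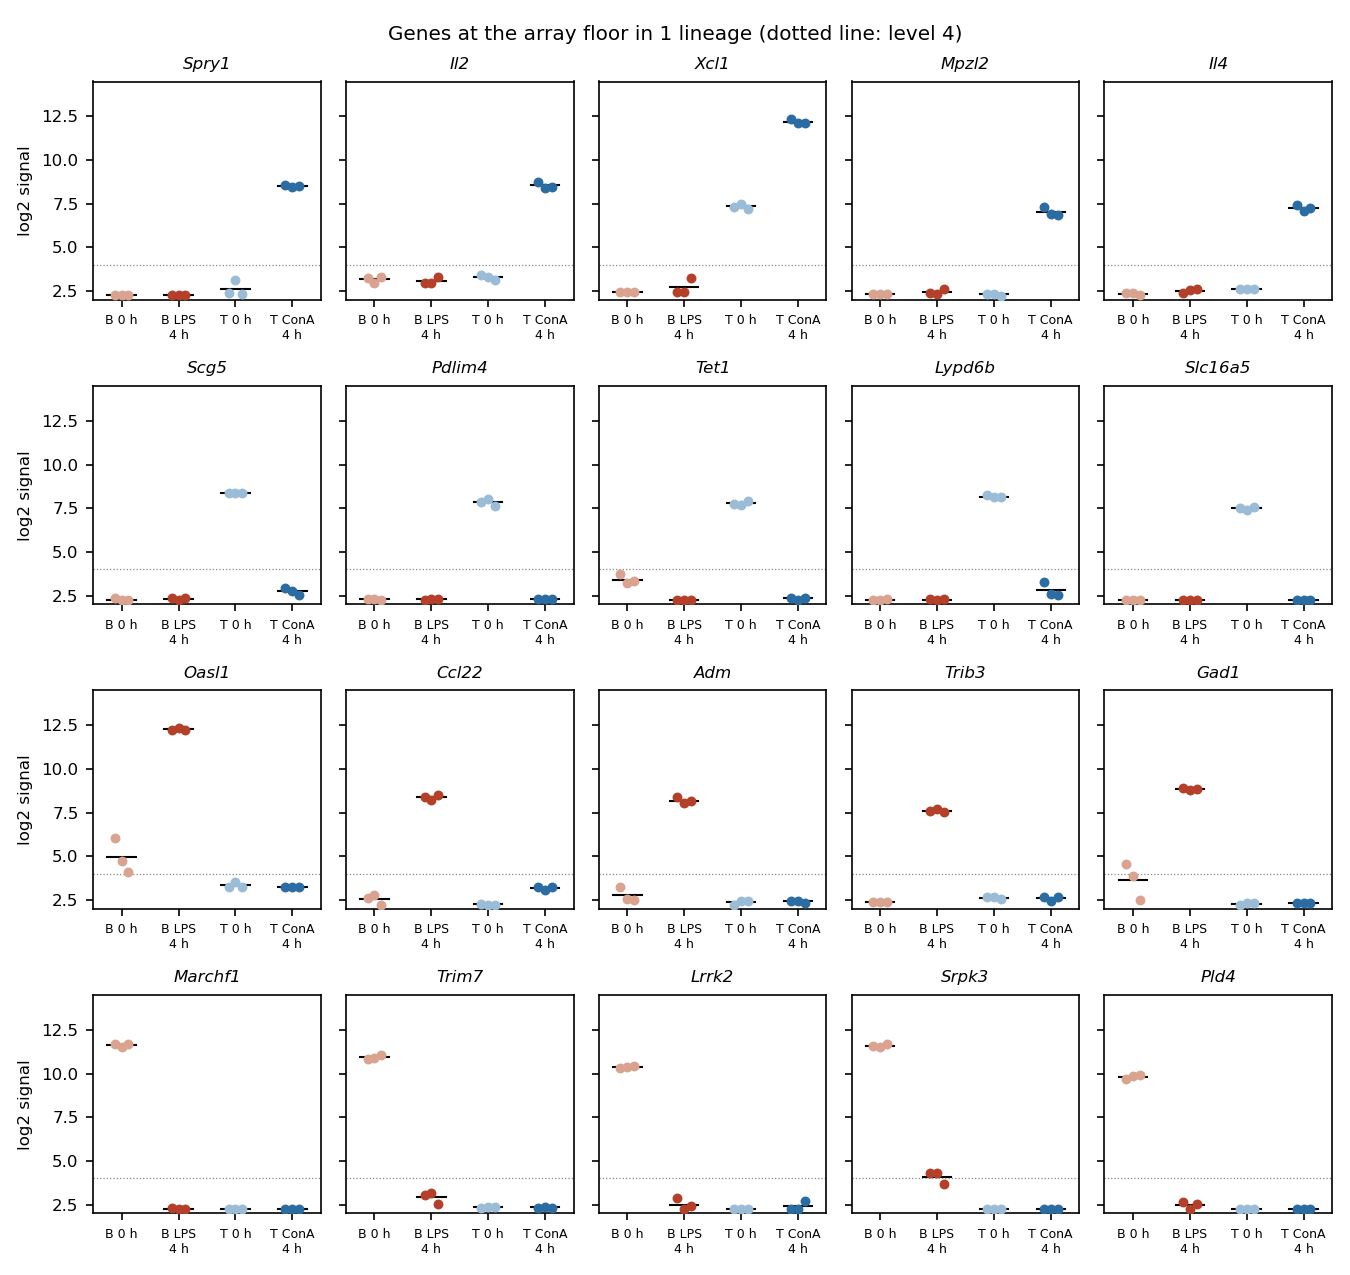
Log2 signal of 20 genes at the floor in 1 lineage, 1 point per array and a line at each group mean; the dotted line marks level 4. The upper 10 panels are genes at the floor in B cells, 5 that rose and 5 that fell in T cells, and the lower 10 are genes at the floor in T cells, 5 that rose and 5 that fell in B cells, Marchf1 by at least 9.38.

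The arrays themselves agreed within groups, with correlations of 0.9947 to 0.9989. In B cells at 0 h 11 of 12 T cell markers were at the floor, and in T cells 6 of 11 B cell markers were. Most erythroid markers were present in resting cells of both lineages and fell in both, 10 of 11 tested in B cells and 9 in T cells. Of the 12 on the arrays, 1 was at the floor in B cells at 0 h and 3 in T cells, Alas2 among the latter at 2.24. Tfrc rose in both lineages, from 12.16 to 12.90 in B cells and from 10.04 to 12.17 in T cells. Xist, the RNA of the inactive X chromosome, read 12.002, 11.98 and 12.004 on the B cell arrays at 0 h, 2.42, 2.24 and 2.38 on those given LPS, 12.15, 12.31 and 12.29 on the T cell arrays at 0 h and 4.33, 2.38 and 2.84 on those given ConA, and 11.70, 11.74 and 11.86 in T cells after 14 h, while the Y-linked gene Eif2s3y was bright in every group at 10.79 ± 0.26, 10.96 ± 0.19, 10.73 ± 0.16 and 11.65 ± 0.14. The labels give no sex, and any part of the animals' sex in the responses was not tested; the Xist interaction of -0.59 ± 0.47 was not called, but it was called at 0.99 with the mean of all its probe sets (limma adjusted p = 0.000946) and at -0.99 without the second ConA array (limma adjusted p = 0.0406). On the dap spike control, the 3' probe set exceeded the 5' one by 4.52 on the second T array at 0 h and 5.35 on the first ConA array, by 1.46 to 1.96 on the other T arrays of the contrast and by 0.21 to 0.78 on B arrays. Without those 2 arrays, 2816 interactions were called above 0 and 3136 below.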

How the data were processed

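RNA from spleen B and T cells was hybridised to 15 mouse expression arrays. The values are deposited log2 signals that the authors computed with GCRMA, per the submitters' processing notes, which model background per probe, so dim probe sets collapse onto a floor of 2.24. They were used as deposited. Of 45101 probe sets, 34958 named 1 gene, 932 several and 9211 none. Each gene took its brightest probe set over all arrays. The fit, a group-means model by limma (version 3.58.1, under R 4.3.3), took in all 15 arrays, and a gene was called at a Benjamini-Hochberg adjusted p under 0.05 over all 9045 genes tested. All p-values and standard errors come from that fit, with 3 arrays a group. SD is over the 3 arrays of a group.

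The members and lists were chosen with earlier results of these data known. Named by rule were Myc, the largest interactions, opposite responses, size differences and floor changes among genes reaching 7, and up to 4 members of each list, 170 genes in all. Another 46 were chosen after their values were seen. The fit was tested on simulated data. Replicate numbers were not used to pair arrays in the reported fit. Alternatives covered scaling, filters, probe sets, the model, a replicate block and left-out arrays.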

Additional observations from a re-analysis of the deposited data

Results flagged for a closer look

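The interaction was called for 5982 genes, which means that the 4 h responses of the lineages differed by a tested term. Among genes measured in all 4 groups, the 16 listed here were those chosen above by the size of their opposite responses. In each, every 4 h array of 1 lineage lay above its own 0 h arrays. Every 4 h array of the other lineage lay below its own 0 h arrays, and the interaction was called. These properties did not set the 16 apart, because the arrays of each lineage were apart in 491 of the 534 genes with opposite responses. Where B cells rose and T cells fell, the interactions were 4.39 for Pik3r5, 5.07 for Ccl5, 4.17 for Ifit1bl1, 5.02 for Ifit3, 3.18 for Slfn8, 3.13 for Myo1g, 4.60 for Ifit2 and 3.50 for Rnf213. Where B cells fell and T cells rose, they were -5.72 for S100a8, -5.95 for Zc3h12d, -5.69 for S100a9, -5.26 for Egr3, -4.07 for Arid5b, -6.06 for Serpinb1a, -3.62 for Sla and -3.61 for Bmp2k.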

How the results depend on the processing

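Under 21 other fits, 5308 to 6067 interactions were called, and 5754 to 6067 when single arrays were left out. Opposite responses numbered 453 to 572 under these fits, and 478 to 572 with single arrays left out. The replicate block gave 5867 calls and 511 opposite responses. With group means removed, arrays of the same number correlated at -0.457 to 0.236. The second T array at 0 h and the first ConA array, with the largest dap differences, correlated at 0.575. Whether the numbers pair arrays was not settled. Floor counts moved: with a highest group mean of at least 7, 141 genes at the floor in B cells and 125 at the floor in T cells were called, fewer genes being tested, and with a floor under 3, 135 at the floor in B cells. Of 216 named genes, 205 kept direction and call under every alternative run. With the mean of all probe sets of a gene, the interaction turned to 0.12 for Atf6, 0.016 for Rps20 and 0.99 for Xist. That of Stat2, not called in any fit, turned to -0.055 without the second T array at 0 h and the first ConA array, and ranged from -0.593 to 0.615 over single arrays left out. The cause was not tested. The 3 arrays a group limit precision, and below the floor no level was measured.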
